A study of Mus musculus with 8 samples.

Results

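Potassium channel genes were followed through a mouse medulloblastoma series as all gene symbols that begin with Kcn, continue with letters and end in a number. The rule used names alone and no measured value. It found 92 genes among the 20608 symbols of the bulk read counts and the same number among the 27998 genes of the single-cell matrices. By symbol they fall into 5 families, with 40 voltage-gated subunits, 15 inward rectifiers, 14 two-pore channels, 8 channels opened by calcium or sodium, and 15 accessory subunits.

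The mice behind all samples are labelled Patched 1 deficient. Patched 1 keeps Hedgehog signalling silent. No group comes from mice labelled otherwise, so there is no healthy control. The labels give no age, strain, promoter or Cre line, so it is not known in which cell types Patched 1 was lost. In 1 library single cells of a primary tumour were profiled, and in 1 further library single cells of a relapsed tumour taken at 3 weeks, by their title and source. The description of the relapsed library names a primary tumour, and the title and source were followed. In 6 bulk libraries RNA of sorted astrocytes was sequenced, 3 of a group called stroma A and 3 of a group called stroma B. The design text compares astrocytes of primary and relapsed tumours, but no label ties stroma A or stroma B to either state, so no bulk value is read as primary or relapsed. Nothing in the labels says whether the 3 libraries of a stroma came from separate animals, so their p-values measure the spread between these libraries, which may be technical.

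Potassium channels let potassium ions cross the cell membrane and set the membrane potential. Inward rectifiers such as Kcnj10 (Kir4.1) give astrocytes their strong potassium conductance and help clear potassium from around neurons. Two-pore channels carry leak currents, voltage-gated channels end action potentials in neurons and also occur in oligodendrocyte precursors, and Kcnj8 (Kir6.1), with its partner Abcc9 (SUR2), forms the ATP-sensitive channel of pericytes.

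The starts of 3 members are shown because the results below turn on them. In the single-cell libraries Kcnj10 was the member with the highest level in astrocytes, and Kcnj8 differed most between the tumour cells. Kcnk13 had the smallest p of all members between the stromata. Kcnj10 lies at chr1:172341210-172374085 on the plus strand, Kcnj8 at chr6:142564837-142571614 on the minus strand and Kcnk13 at chr12:99964499-100062682 on the plus strand (GRCm38, GENCODE M21). Each sequence below is 300 bases from RefSeq on GRCm38.p6, from 250 bases before the start of a transcript to 50 bases after it, read in the direction of the gene. Capitals mark the E-box letters CANNTG, which read the same on both strands and which basic helix-loop-helix factors such as Atoh1, Neurod1 and Olig2 bind.
Kcnj10, chr1:172340960-172341259, plus strand: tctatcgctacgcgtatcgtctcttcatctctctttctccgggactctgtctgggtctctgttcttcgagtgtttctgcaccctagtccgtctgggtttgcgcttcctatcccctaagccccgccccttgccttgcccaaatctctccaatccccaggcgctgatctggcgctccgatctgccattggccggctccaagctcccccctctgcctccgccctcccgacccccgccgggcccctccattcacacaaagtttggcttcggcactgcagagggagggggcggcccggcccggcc
Kcnj8, chr6:142571565-142571864, minus strand: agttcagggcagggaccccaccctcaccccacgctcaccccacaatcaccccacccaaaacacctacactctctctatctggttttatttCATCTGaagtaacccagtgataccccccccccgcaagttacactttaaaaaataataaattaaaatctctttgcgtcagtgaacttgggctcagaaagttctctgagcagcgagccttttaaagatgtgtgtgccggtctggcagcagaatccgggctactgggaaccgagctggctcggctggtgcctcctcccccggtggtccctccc
Kcnk13, chr12:99964249-99964548, plus strand: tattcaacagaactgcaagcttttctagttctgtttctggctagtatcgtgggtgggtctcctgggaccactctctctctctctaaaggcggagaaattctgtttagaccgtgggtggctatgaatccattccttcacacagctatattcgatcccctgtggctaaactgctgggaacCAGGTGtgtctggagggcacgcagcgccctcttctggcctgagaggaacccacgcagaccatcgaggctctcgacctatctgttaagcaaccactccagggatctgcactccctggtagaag
The Kcnj10 window held 63.67% G and C and no E-box letters, while the windows of Kcnj8 (53.33%) and Kcnk13 (52.67%) held 1 each. RefSeq gave 92 such windows for 67 of the 92 members. An E-box stood in 72.83% of these and in 72.31% of all 32851 windows of the same length. The Sp1 letters GGGCGG, searched on both strands, stood in 47.83% of members' windows and 35.66% of all. The TATA letters TATAAA stood in 5.435% against 13.62%, the Sox letters ACAAAG in 15.22% against 18.71%, and the Gli letters GACCACCC in none of the members' windows against 0.8067% of all. These matches describe letters only, and several windows of 1 gene overlap in part.

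The bulk libraries held between 6718165 and 11798735 reads, and between 83 and 92 members had a read in each. Within both stromata every pair of replicates differed by far more than sampling noise, so none was counted as a repeat of another. The sort was labelled astrocyte, but oligodendrocyte precursor genes were abundant. Summed over the 9 markers of that cell type, the level was 19954, 11974 and 10868 CPM (counts scaled to library size and by TMM factors) in stroma A and 2147, 2430 and 11052 CPM in stroma B. The 12 astrocyte markers summed to 4311, 2088 and 3604 CPM in stroma A and 7248, 10765 and 4237 CPM in stroma B. Those of granule precursors and tumour cells summed to 759, 343 and 399 CPM in stroma A and 3675, 2176 and 716 CPM in stroma B. On these 3 lists stroma B replicate 3 lay nearer to stroma A than stroma B replicates 1 and 2 did. Markers of mature oligodendrocytes summed to 1405, 2362 and 2418 CPM in stroma A and 248, 195 and 709 CPM in stroma B, and those of cycling cells to 1284, 1360 and 1245 CPM against 3846, 3824 and 4300 CPM, so that cycling markers were high in all 3 stroma B libraries. Microglia markers were uneven within stroma A, at 27.3, 349 and 1606 CPM, against 80.4, 58.1 and 30.3 CPM, and so were endothelial markers, at 48.7, 341 and 842 CPM against 20.4, 55.9 and 40.9 CPM. The part of these other cells in the results below was not tested, and in bulk RNA a smaller number of cells of a type cannot be told apart from less RNA per cell.

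Levels of different genes are compared on the authors' FPKM scale, which accounts for gene length. Of the 84 members in that table, 12 had a mean over the 6 libraries of at least 5 FPKM, 32 had at least 1 and 20 had less than 0.1, with a median of 0.439. Kcnip3, an accessory subunit of Kv4 channels that also acts as the calcium-binding repressor DREAM, had the highest mean, 80.1 FPKM. Stroma A gave 159, 60.8 and 82.5 FPKM and stroma B 23.5, 25.3 and 130 FPKM, so that stroma B replicates 1 and 2 were low and replicate 3 was not. Kcnj10 was next with a mean of 31.0 FPKM, with 35.1, 10.3 and 18.5 FPKM in stroma A against 19.4, 63.0 and 39.5 FPKM in stroma B. Its groups overlapped. Kcnmb4, an accessory subunit of the large-conductance calcium-activated channel, followed with a mean of 18.5 FPKM. The means of the Kv4 pore subunits Kcnd3 and Kcnd2 were 11.6 and 10.7, of the leak channels Kcnk1 and Kcnk2 10.1 and 7.94, of Kcnj16 (Kir5.1), which pairs with Kcnj10, 9.23, of the accessory Kcnip1 6.16 and of the leak channel Kcnk10 5.29 FPKM. The spread between libraries was wide beside these steps. Among neighbours in the order, no test of a difference was made.

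**Figure D1:**
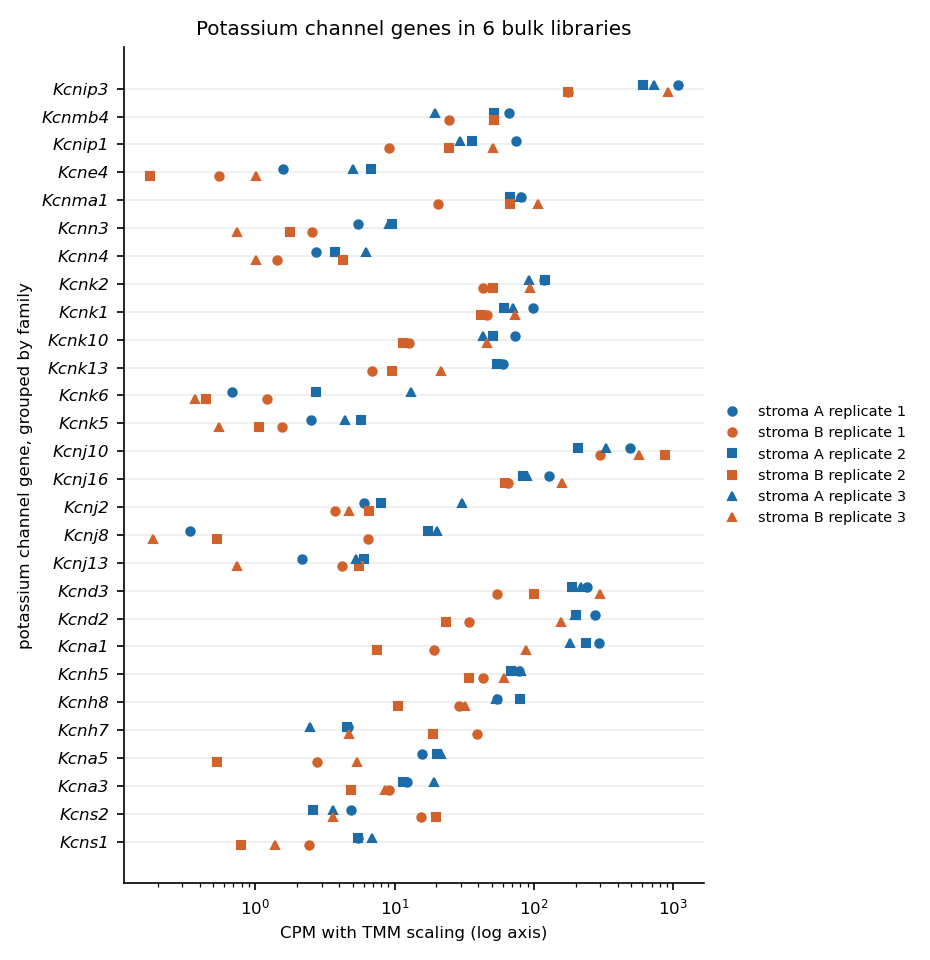
TMM-scaled CPM (log axis) of the 28 named members in each bulk library, in blue for stroma A and orange for stroma B, with the shape giving the replicate. All 3 orange points lie below all blue ones in Kcnk13, Kcna1 and Kcna5, and, among others, in Kcna3, Kcnd2, Kcnh5, Kcnh8, Kcns1, Kcnn3 and Kcne4. In members such as Kcnk2, Kcnk10 and Kcnip3 only the circle and square of stroma B do.

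The first comparison asked which members differed between the sorted astrocytes of stroma B and stroma A. No member passed the test across all genes. Of the 92 members, 71 passed the filter on low counts, and with edgeR's quasi-likelihood test 0 of the 71 had an adjusted p under 0.05, where 0.663% of all 14176 genes tested did, 0.388% higher and 0.275% lower in stroma B. At an unadjusted p under 0.05 the members numbered 18 (25.4%), 2 higher and 16 lower in stroma B. The background was 21.8% of all genes, with 11.2% higher and 10.6% lower. The share of members was therefore near the background in all and above it on the lower side (22.5%). With DESeq2, 8 of 84 members had an adjusted p under 0.05, beside 10.5% of all genes (4.77% higher, 5.72% lower). Of these, Kcna1, Kcna5, Kcne4, Kcnh8, Kcnk13, Kcnn3 and Kcns1 were lower and Kcnh7 was higher. The 21 members that were not tested had at most 66 reads in any library (Kcnk9) and otherwise at most 18.

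The fitted values of the tested members lay mostly below 0. Their median log2 fold change of stroma B against stroma A was -0.71, with 21 above and 50 below 0, beside a median of -0.03 over all genes tested. Of all genes tested 48.4% lay above 0. Stroma B lay below stroma A without overlap in 17 members (23.9%), against 13.1% of all genes, and above it without overlap in 4 (5.63%), against 14.2%. Stroma B replicate 3 often differed from the other stroma B libraries. Stroma B replicates 1 and 2 both lay below all of stroma A in 30 members (42.3%, all genes 22.2%), and in 24 of these (80.0%, all such genes 73.9%) replicate 3 lay above the higher of the pair. Without stroma B replicate 3, 16 of 79 members had an adjusted p under 0.05, 13 lower and 3 higher, beside 8.70% of all genes (4.56% lower, 4.13% higher), and the median was -0.91. Among them were Kcna1, Kcna5, Kcna6, Kcnab3, Kcnb2, Kcnd2, Kcnd3, Kcnh7, Kcnip3, Kcnk2, Kcnk3, Kcnk10, Kcnk13, Kcnq3 and Kcns2.

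In the two-pore family all tested members were fitted lower, 8 of 8, with a median of -1.17 and 4 at an unadjusted p under 0.05 (edgeR), beside 21.8% of all genes. Over all genes 48.4% were fitted higher. Only members that passed the filter enter this count, and with no filter 11 of 14 were fitted lower. Kcnk13 (THIK-1), a halothane-inhibited leak channel, stood at 59.8, 54.1 and 54.7 CPM in stroma A and at 6.88, 9.67 and 21.5 CPM in stroma B. The groups did not overlap, and the log2 fold change was -2.15 ± 0.43 (SE, n = 3 against 3; edgeR adjusted p = 0.072). Kcnk2 (TREK-1), a leak channel opened by stretch and lipids, read 118, 120 and 92.9 CPM in stroma A and 43.3, 50.5 and 94.5 CPM in stroma B, where only replicate 3 reached the range of stroma A. Kcnk10 (TREK-2), its close relative, had the same layout, with 73.4, 51.2 and 43.0 CPM against 12.6, 11.5 and 46.4 CPM. Kcnk1 (TWIK-1) gave 97.6, 61.0 and 70.9 CPM against 46.1, 41.7 and 72.9 CPM, or -0.51 ± 0.29 on the log2 scale (edgeR adjusted p = 0.336). Kcnk5 (TASK-2) and Kcnk6 (TWIK-2) were low, at most 5.78 and 13.1 CPM, and their log2 fold changes were -1.99 ± 0.68 and -3.02 ± 1.15, with adjusted p of 0.165 and 0.195 (edgeR).

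Among the 33 voltage-gated subunits tested, 12 were fitted higher (36.4%, all genes 48.4%) and 21 lower, with a median of -0.60. With edgeR 11 had an unadjusted p under 0.05 (33.3%, all genes 21.8%), 9 of them lower (27.3%, all genes 10.6%). Kcna1 (Kv1.1), a delayed rectifier of axons and glial precursors, read 292, 237 and 182 CPM in stroma A and 19.2, 7.54 and 87.6 CPM in stroma B. The groups did not overlap, but the test was not passed (log2 fold change -2.64 ± 0.82, edgeR adjusted p = 0.145). Its relatives Kcna5 (15.9, 20.1 and 21.6 CPM against 2.77, 0.532 and 5.35 CPM) and Kcna6 (197, 131 and 161 CPM against 21.3, 27.9 and 114 CPM) were laid out alike and also missed the threshold, with edgeR adjusted p of 0.118 and 0.203. Kcnd2 (Kv4.2), the pore of an A-type current, read 276, 202 and 199 CPM in stroma A and 34.4, 23.4 and 157 CPM in stroma B. The groups did not overlap, and the edgeR adjusted p was 0.220. Kcnh8 (54.8, 79.2 and 53.0 CPM against 29.1, 10.6 and 32.2 CPM), Kcnh5 (77.9, 68.4 and 80.2 CPM against 43.1, 34.4 and 60.9 CPM) and the silent modifier subunit Kcns1 (5.48, 5.51 and 6.85 CPM against 2.44, 0.798 and 1.38 CPM) also lay below without overlap. Kcna3 (Kv1.3), a channel of immune cells, read 12.2, 11.4 and 19.2 CPM against 9.20, 4.88 and 8.48 CPM.

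On the higher side, Kcnh7 (Erg3) read 4.68, 4.54 and 2.47 CPM in stroma A and 38.8, 18.8 and 4.70 CPM in stroma B, or 2.41 ± 0.74 on the log2 scale (edgeR adjusted p = 0.143). Its lowest stroma B value exceeded the highest stroma A value by almost nothing. Kcnh7 shares exonic bases with the gene Gca, and since the strand setting of the counting is not given in the sources used here, reads of overlapping genes cannot be told apart. The same limit holds for 28 of the 92 members, among them Kcnk1, Kcnk2, Kcna6, Kcnab3, Kcnd3 and Kcnma1. Kcns2, a silent modifier subunit, read 4.91, 2.62 and 3.59 CPM against 15.4, 19.7 and 3.59 CPM, so its groups overlapped through replicate 3.

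Of the 11 inward rectifiers tested 4 were fitted higher (36.4%, all genes 48.4%) and 7 lower, with a median of -0.16. With edgeR 0 had an unadjusted p under 0.05, beside 21.8% of all genes. Without stroma B replicate 1 the median was -0.59 and without stroma B replicate 2 it was -0.05, each over the 14 members then tested. Kcnj10 read 486, 207 and 328 CPM in stroma A and 298, 872 and 570 CPM in stroma B (log2 fold change 0.77 ± 0.46, edgeR adjusted p = 0.358). Kcnj16 read 128, 83.3 and 89.3 CPM against 65.7, 61.5 and 158 CPM, with a fold change near 0. Kcnj2 (Kir2.1), prominent in endothelium and microglia, read 6.05, 7.98 and 30.4 CPM against 3.77, 6.56 and 4.70 CPM. Kcnj8 was uneven within each group, at 0.342, 17.5 and 20.2 CPM against 6.43, 0.532 and 0.184 CPM. The pericyte marker Rgs5 read 0.684, 78.7 and 313 CPM in stroma A and 5.99, 3.90 and 3.13 CPM in stroma B, so both were lowest in stroma A replicate 1 among the stroma A libraries. Kcnj13 (Kir7.1), at 0.737 to 6.06 CPM, shares exonic bases with Gigyf2 on the opposite strand, and its reads may belong to either.

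Of the 8 calcium- or sodium-activated channels 7 were fitted lower and 1 higher (12.5%, all genes 48.4%), with a median of -0.79. Kcnn3 (SK3), a small-conductance channel, read 5.48, 9.64 and 9.10 CPM in stroma A and 2.55, 1.77 and 0.737 CPM in stroma B, or -2.25 ± 0.61 on the log2 scale (edgeR adjusted p = 0.119) without overlap. Kcnma1, the pore of the large-conductance channel, read 80.8, 67.9 and 79.3 CPM against 20.5, 67.1 and 108 CPM. Kcnn4, the intermediate-conductance channel, stayed between 1.01 and 6.29 CPM in all 6 libraries.

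Of the 11 accessory subunits tested 7 were fitted lower and 4 higher (36.4%, all genes 48.4%), with a median of -0.72. Kcnip3 read 1071, 603 and 726 CPM in stroma A and 176, 176 and 921 CPM in stroma B, and replicate 3 again lay inside the range of stroma A (edgeR adjusted p = 0.452). Kcnip1 read 74.0, 35.9 and 29.7 CPM against 9.20, 24.7 and 50.9 CPM. Kcne4, which modulates Kv channels, was low throughout, at 1.60, 6.75 and 5.06 CPM against 0.554, 0.177 and 1.01 CPM. Kcnmb4 read 66.3, 51.9 and 19.7 CPM against 24.6, 52.1 and 52.0 CPM (log2 fold change -0.10 ± 0.48, edgeR adjusted p = 0.922), and it shares exonic bases with antisense genes.

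**Figure D2:**
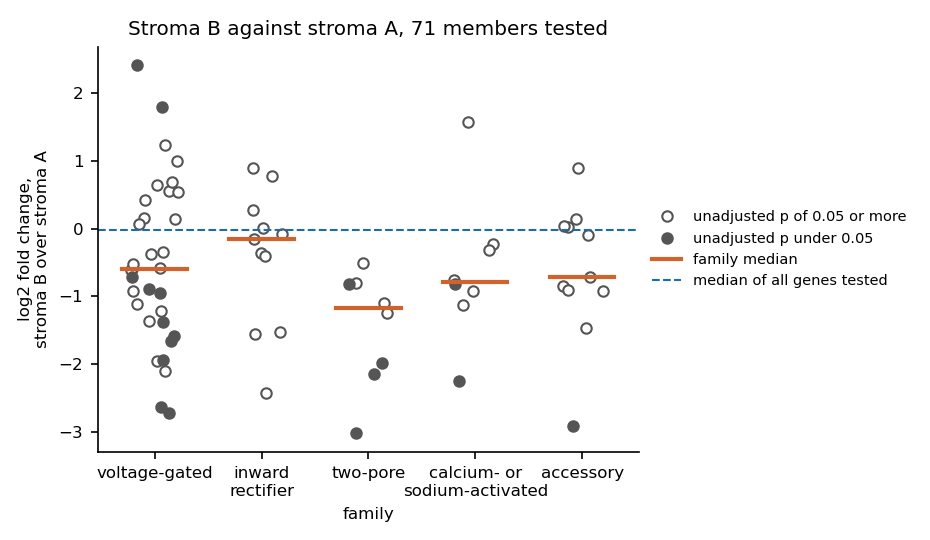
Log2 fold change of stroma B against stroma A for the 71 tested members, by family, with filled points at an unadjusted p under 0.05 (edgeR), orange lines at family medians and a dashed line at the median of all genes. All 8 two-pore members lie below 0, and the median of the inward rectifiers, -0.16, lies nearest to the dashed line.

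Beside the channels, 36 genes that move potassium or work with the channels were listed (the sodium pump, potassium-chloride carriers, channel partners, pacemaker channels, gap junctions and the water channel). Of the 32 tested, 0 passed the edgeR test, and 8 had an unadjusted p under 0.05 (all genes 21.8%), 3 higher and 5 lower, with a median of -0.22. With DESeq2 7 of 35 passed (3 higher, 4 lower), beside 10.5% of all genes. Without stroma B replicate 3 edgeR called 5 of 34 (1 higher, 4 lower), beside 8.70% of all genes. Among the 4 with the smallest p, Slc12a2 (NKCC1), which brings potassium into the cell, read 319, 305 and 343 CPM in stroma A and 176, 194 and 219 CPM in stroma B, a small difference with close replicates (log2 fold change -0.72 ± 0.18, edgeR adjusted p = 0.113). Dpp10, an extracellular partner of Kv4 channels, read 104, 119 and 63.0 CPM against 11.4, 0.975 and 0.184 CPM. Amigo1, a partner of Kv2 channels, ran the other way, with 8.90, 6.88 and 8.87 CPM against 45.2, 54.0 and 9.49 CPM. Of the gap junction and water channel genes, 3 of 3 were fitted higher, as were 48.4% of all genes. Aqp4, also 1 of the astrocyte markers, read 95.3, 20.5 and 238 CPM against 1014, 752 and 348 CPM, without overlap.

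The single-cell libraries held 9164 barcodes (primary) and 7852 (relapsed), of which 93 occurred in both. After filters on genes, mitochondrial UMIs and doublet scores, 8548 and 7369 cells were kept. Without the 76 shared barcodes among these, the counts of members past a 2-fold difference given below became 12 in place of 13 in cycling cells and 13 in place of 15 in oligodendrocyte precursors and were the same in the other classes. Clusters were made without the members, so no channel defined the class it was measured in. With 1 library per tumour state no difference could be tested. All intervals below are 95% intervals for counting error only, and a CPM is here the UMIs of a gene in a class scaled to the total of all UMIs of that class, with no scaling by gene length. The granule lineage, which includes the tumour cells, held 7362 primary and 6918 relapsed cells and had Atoh1 at 166 and 239 CPM. The astrocyte class held 41 and 58 cells, with Gfap at 1801 and 2541 CPM. The oligodendrocyte precursor class held 182 and 34 cells, with Pdgfra at 1021 and 287 CPM. The microglia class held 195 and 29 cells, and macrophages were not separated from it. The vascular and meningeal classes were small, with 20 and 8 endothelial cells, 3 and 13 pericytes and 6 and 22 fibroblasts. Mature oligodendrocytes numbered 26, all in the primary library. Median depth differed between the libraries in these classes, for example 4721 against 16662.5 UMIs per cell in astrocytes.

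The members as a sum were highest in primary oligodendrocyte precursors and lowest in microglia. The summed level of all 92 was 1331 CPM [1185 to 1490] in primary and 937 CPM [879 to 998] in relapsed astrocytes, and 1798 CPM [1697 to 1903] and 815 CPM [732 to 905] in oligodendrocyte precursors. It was 431 CPM [425 to 437] and 406 CPM [400 to 411] in the granule lineage. Within that lineage it was 383 and 328 CPM in precursors, 344 and 365 CPM in cycling cells, and 888 and 948 CPM in differentiating cells. The precursor class was not free of genes of dividing cells. Its cluster g1, with 1689 relapsed cells, was led by genes such as Hist1h2ap and Tk1, and 3 of the 8 cycling markers were raised. Genes such as Cenpa and Cdc25c led g9 (826 relapsed cells) and g11 (491 primary cells). The part of this mix in values of the precursor class was not tested. Microglia had 158 and 149 CPM, endothelial cells 211 and 197 CPM and fibroblasts 489 and 212 CPM. In pericytes the sum was 1001 and 1270 CPM, of which Kcnj8 made 644 and 1064 CPM.

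**Figure D3:**
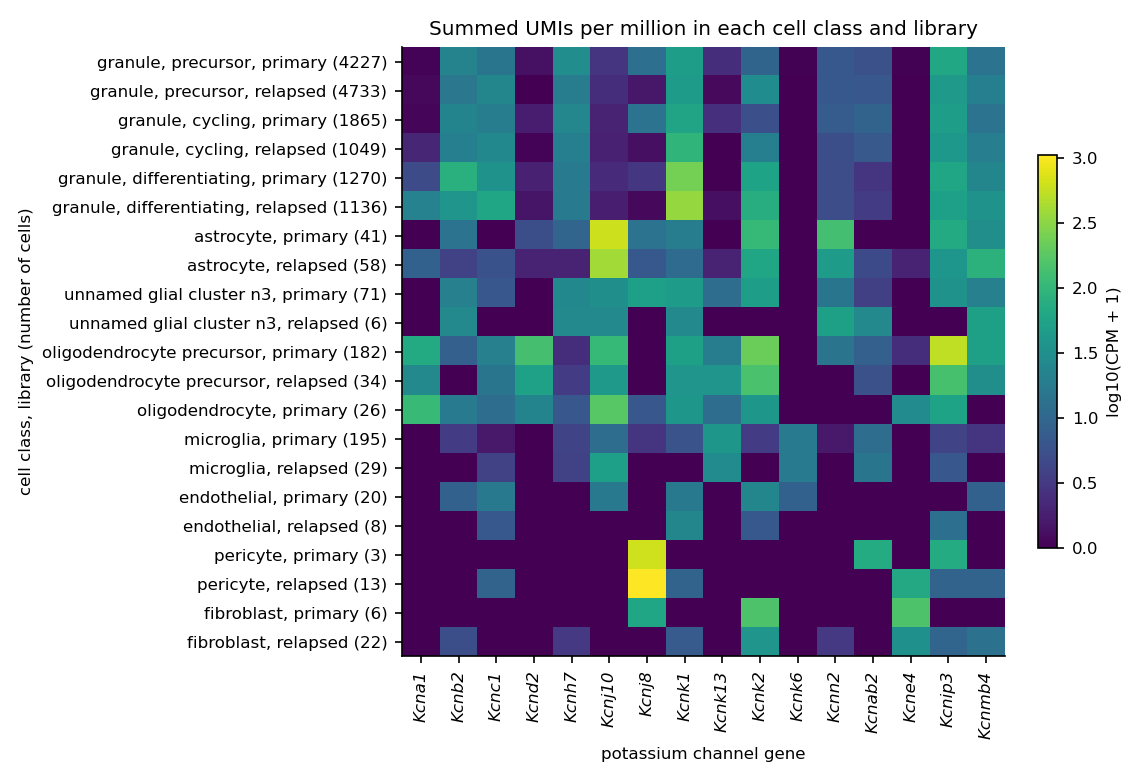
Heat map of log10(CPM + 1) for 16 members (columns) in each cell class and library (rows). Kcnj10 is brightest in astrocytes, Kcnj8 in pericytes, Kcnip3 in primary oligodendrocyte precursors and Kcnk1 in differentiating granule cells.

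Kcnk1 was the leading channel of the granule lineage, with 3441 UMIs (75.4 CPM) in the primary tumour and 5137 UMIs (91.5 CPM) at relapse. Within the lineage it was highest in differentiating cells, at 250 CPM [237 to 264] in primary and 355 CPM [341 to 370] in relapsed cells, beside 48.2 and 46.3 CPM in precursors. In differentiating cells 57.0% and 78.3% of cells held a Kcnk1 UMI, or 39.8% and 50.5% after each cell was thinned to 2000 UMIs. In primary microglia, which served as a class with low levels, it had 8 UMIs, in 4.10% of cells. Kcnip3 stood at 58.7 and 42.5 CPM in the lineage. In differentiating cells Kcnb2 (Kv2.2) was 82.5 and 37.0 CPM, Kcnc1 (Kv3.1) 34.8 and 58.6 CPM and Kcnj3 (Kir3.1, of the G-protein-gated channel) 34.2 and 21.6 CPM. In precursors Kcnb2 was 21.8 and 14.9 CPM, Kcnc1 14.0 and 23.3 CPM and Kcnj3 7.04 and 1.97 CPM. In both libraries these 3, chosen after their values were seen, were higher in the differentiating cells, where the neuronal marker Neurod1 was 1276 and 1197 CPM. Other voltage-gated members, also chosen after their values were seen, were higher in cycling cells, with Kcnh7 at 16.7 and 16.5 CPM in differentiating and 24.5 and 19.4 CPM in cycling cells, and Kcnq3 at 4.21 and 4.77 CPM against 11.2 and 8.59 CPM.

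The second comparison set the relapsed tumour cells beside the primary ones. A member was counted as past the fold with at least 20 UMIs over both libraries and at least a 2-fold difference in CPM (pseudocount 0.5 UMI). In the granule lineage this held for 20 of 49 members (40.8%), beside 17.0% of all 13901 genes with as many UMIs. The 7 higher in the relapsed library made 14.3%, against 7.32% of all genes, and the 13 lower made 26.5%, against 9.68%. The median log2 ratio over the members was -0.16, beside -0.10 over all genes, with 17 of the 49 above 0 and 32 below, where 42.1% of all genes were above 0. The granule clusters were almost all of 1 library each (g2, g5, g8, g11, g3, g12 and g4 primary, g0, g1, g9, g7 and g6 relapsed), and the tumour state and the library cannot be told apart.

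Kcnj8 was the member with the largest ratio. It had 510 UMIs (11.2 CPM) in primary and 27 UMIs (0.481 CPM) in relapsed granule cells, a log2 ratio of -4.51 [-5.15 to -3.98]. In the primary library 5.75% of granule cells held a UMI (1.85% after thinning). So did 1.54% of primary microglia (1.03% after thinning, 1.87 CPM from 3 UMIs). In primary astrocytes it was 7.32% of 41 cells (4.88% after thinning, 13.2 CPM from 3 UMIs), not less than in granule cells. In the relapsed library 0.390% of granule cells held a UMI. The level was uneven among primary clusters, at 18.3 CPM in the precursor cluster g2, 16.4 in the cycling cluster g3 and 14.8 in g11, but 9.6 in g5, 2.1 in g8, 2.6 in g12 and 2.0 in the differentiating cluster g4. The relapsed clusters ran from 0.2 to 1.1 CPM. Abcc9, the regulatory subunit of the same channel, was 1.5 CPM in primary and 0.1 CPM in relapsed granule cells, and within the primary clusters it was highest in g2 (3.2 CPM). Rgs5, the defining pericyte marker, was near 1 CPM in the primary lineage, beside 10229 CPM in primary pericytes.

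Other members were also lower in the relapsed granule cells. Kcnn1 (SK1) had 155 and 31 UMIs, a log2 ratio of -2.60 [-3.23 to -2.06]. Kcnk13 had 61 and 9 UMIs (-2.99 [-4.26 to -2.04]). In cycling cells it had 24 and 0, at least 6.33-fold lower against a floor of 3 UMIs. Kcna2 (Kv1.2) had 98 and 29 UMIs (-2.04), Kcnj3 493 and 262 (-1.21) and Kcnab1, a cytoplasmic partner of Kv1 channels, 296 and 181 (-1.01). Also among the 13 were Kcne1, Kcnd2, Kcnt2, Kcnj9, Kcnh5 and Kcns3, with ratios from -2.99 (Kcne1) to -1.22 (Kcns3).

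Of the members higher in the relapsed granule cells, Kcnk2 had by far the most UMIs, 584 primary and 1794 relapsed (12.8 and 32.0 CPM), a log2 ratio of 1.32 [1.18 to 1.46]. In precursor and cycling clusters it read 2.9 to 9.0 CPM in the primary and 19.3 to 32.7 CPM in the relapsed library. These clusters are parts of 1 library per tumour state and not replicates. In differentiating cells the levels were 55.8 and 75.3 CPM, closer together. Kcnn4 had 24 and 195 UMIs (2.70 [2.11 to 3.40]). Its level was 0.529 and 4.26 CPM in precursors but 0.366 and 0.636 CPM in differentiating cells. Kcna1 had 26 and 152 UMIs (2.23 [1.64 to 2.91]), of which 22 and 132 were in differentiating cells (4.03 and 21.0 CPM). Kcnk12, Kcnip1 and Kcnk3 had 33 and 89, 6 and 27, and 1 and 22 UMIs, and the interval of Kcnc2 (5 and 15 UMIs; -0.25 to 3.10) included 0.

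**Figure D4:**
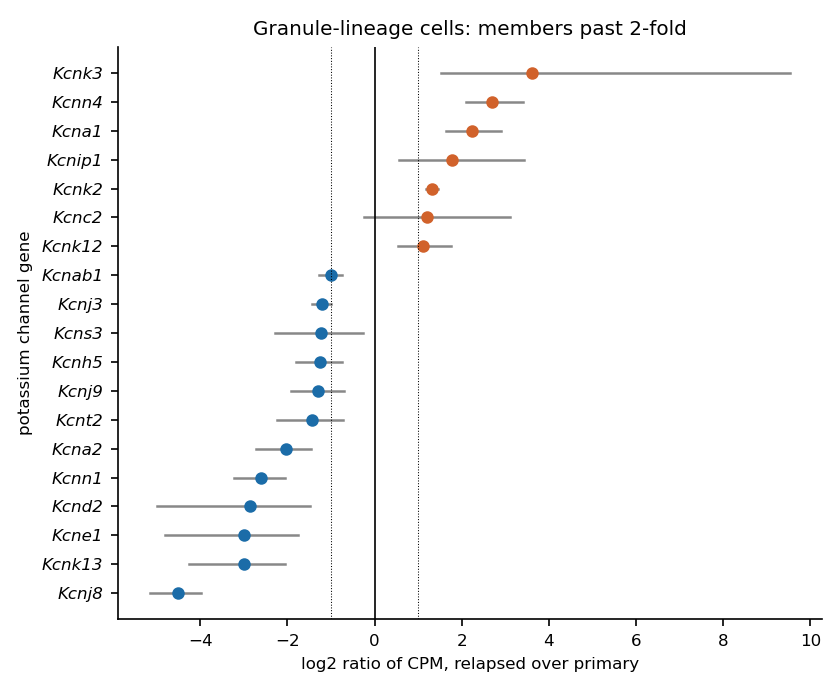
Log2 ratio of CPM, relapsed over primary granule lineage cells, with 95% counting intervals, for 19 of the 20 members past 2-fold. Kcnj8 at -4.51 lies farthest from 0 and Kcnk2 has the narrowest interval.

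By class within the lineage, 18 of 42 members were past the fold in precursors (42.9%, all genes 18.7%; 13 lower beside 10.3% of all genes and 5 higher beside 8.34%), 13 of 36 in cycling cells (36.1%, all genes 16.4%; 9 lower beside 9.75% and 4 higher beside 6.67%) and 6 of 31 in differentiating cells (19.4%, all genes 14.1%; 4 lower beside 7.78% and 2 higher beside 6.29%). The count in cycling cells was 8 of 31 with the members allowed in the clustering and 5 of 22 with at least 50 UMIs, settings for which no share of all genes was computed. In differentiating cells the 4 lower were Kcnn1 (14.8 and 2.07 CPM), Kcnj9, Kcnb2 and Kcna2, and the 2 higher were Kcna1 and Kcnd3. This class was almost all cluster g4 in the primary and g6 in the relapsed library. In g4 7 of the 9 differentiation markers were raised and in g6 3, the minimum for the name. Whether the cells differed in maturity was not tested. Past the fold in precursors but not in the lineage as a whole were, among others, Kcnk10 (49 and 24 UMIs) and, on the higher side, Kcng2 (15 and 70). In cycling cells these included Kcnj12 (29 and 53), Kcnab3 (7 and 13) and Kcnd3 (26 and 6). Of these, Kcnj12 stayed past the fold in 4 of 7 alternative settings, Kcnab3 in 3 of 5 and Kcnd3 in 6 of 6.

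**Figure D5:**
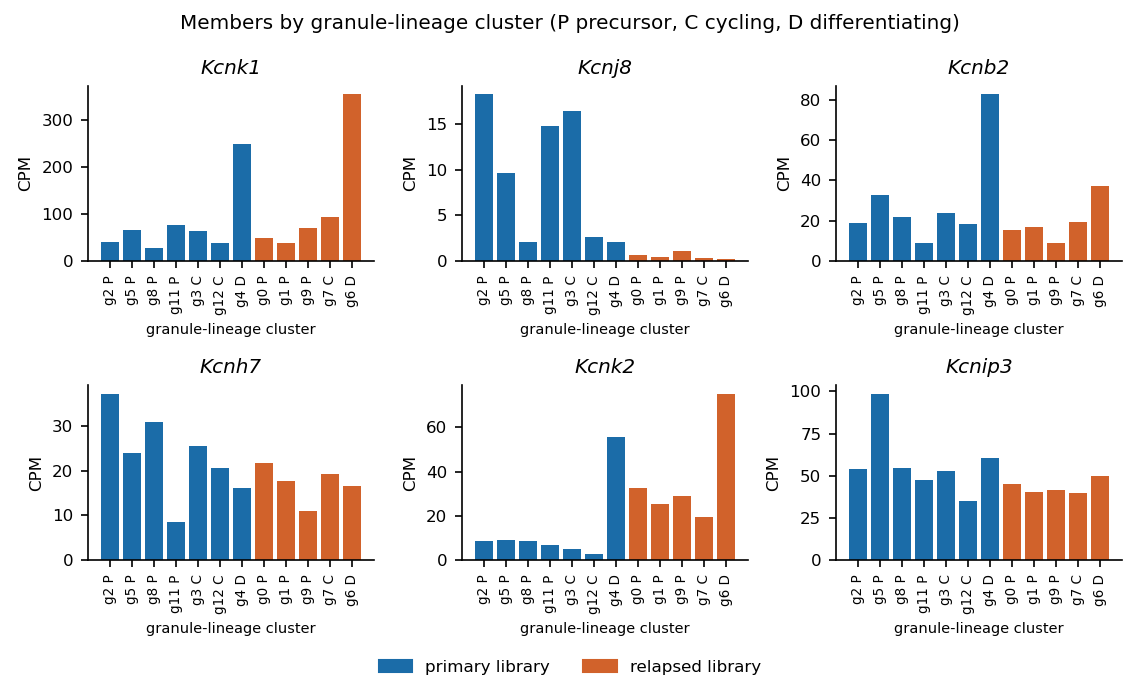
CPM of Kcnk1, Kcnj8, Kcnb2, Kcnh7, Kcnk2 and Kcnip3 in each granule cluster, marked as precursor (P), cycling (C) or differentiating (D), with the library in colour. Kcnk1 peaks in g4 and g6, the differentiating clusters, and no relapsed bar of Kcnj8 exceeds 1.1 CPM. Kcnk2 is higher in the relapsed than in the primary precursor and cycling clusters. Clusters are parts of 1 library per tumour state and not replicates.

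In astrocytes Kcnj10 led every other member. It had 142 UMIs in 41 primary cells (624 CPM [525 to 735]) and 420 UMIs in 58 relapsed cells (404 CPM [367 to 445]). A UMI was seen in 36 of 41 (87.8%) and 46 of 58 cells (79.3%), or in 56.1% and 36.2% after thinning, beside 0.883% and 0.997% of granule cells. The class was made of cluster n10, with 32 primary cells at 700 CPM, and cluster n5, with 9 primary cells at 376 CPM and 58 relapsed cells at 404 CPM. With no doublets removed its log2 ratio in the class moved from -0.63 to 0.12. Kcnj16 read 70.3 CPM in both libraries. The partner genes of astrocytes stood beside them, with Aqp4 at 1990 and 978 CPM and the sodium pump subunit Atp1b2 at 1081 and 799 CPM.

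Of the 9 members with enough UMIs in astrocytes, 3 were past the fold (33.3%, all genes 22.9%; 1 lower beside 14.8% and 2 higher beside 8.02%). Kcnn2 (SK2) was 132 and 45.3 CPM, lower in the relapsed library (log2 ratio -1.55 [-2.23 to -0.83]). Kcnmb4 was 30.8 and 87.6 CPM and Kcnip1 8.79 and 64.5 CPM, both higher in CPM. After thinning, however, a Kcnmb4 UMI was seen in 7.32% of primary and 8.62% of relapsed cells, which is close together. The thinned shares of Kcnip1 were 4.88% and 12.1%, and those of Kcnn2 19.5% and 13.8%. In cluster n5 Kcnmb4 read 94 CPM in primary and 88 CPM in relapsed cells, beside 11 CPM in n10, but the primary values rest on 5 UMIs in 9 cells and 2 UMIs in 32 cells. The class depended on the treatment of doublets: with none removed, 7 of 14 members were past the fold, 2 higher and 5 lower, and the members' sum was 863 CPM in the primary and 829 CPM in relapsed astrocytes. The share of all genes past the fold was not computed with none removed. Kcnip1 was 19 and 65 CPM in n5, the lower value resting on 1 UMI in the 9 primary cells.

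Oligodendrocyte precursors had the largest Kcnip3 level, with 365 UMIs and 552 CPM [497 to 612] in the primary and 60 UMIs and 139 CPM in the relapsed library. Kcnk2 followed with 221 and 144 CPM, then Kcnd2, the Kv4 pore that Kcnip3 binds, with 136 and 53.3 CPM, and Dpp6, another Kv4 partner, with 104 and 25.5 CPM. Kcnj10 was 106 and 41.7 CPM, Kcna1 69.6 and 25.5 CPM and Kcna2 52.9 and 13.9 CPM. Of the 20 members with enough UMIs 15 were past the fold (75.0%, all genes 29.6%), 12 lower (all genes 19.9%) and 3 higher (all genes 9.73%) in the relapsed library. The other lower ones included Kcnk3, Kcnh8, Kcnq3 and Kcnj16. The 3 higher were Kcnip1 (28.7 and 57.9 CPM), Kcnk13 (18.1 and 37.1 CPM) and Kcna6 (19.7 and 41.7 CPM). The intervals of Kcnk13 and Kcna6 included 0, and Kcnip1 stayed past the fold in only 2 of 6 alternative settings. The class came from different clusters in the libraries, n1, n2 and n18 in the primary and n9 in the relapsed. Pdgfra was 956, 1036 and 1220 CPM in the former and 287 CPM in the latter. In n9, 6 of the 9 listed markers of the class were raised, Pdgfra not among them. Kcnip3, Kcnd2 and Dpp6 were also lower in n9, while Kcnip1 was higher.

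Mature oligodendrocytes of the primary library had Kcnj10 at 172 CPM, in 65.4% of 26 cells, with Kcna1 at 111 CPM and Kcna2 at 66.6 CPM. No such cells were kept in the relapsed library.

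The microglia class, macrophages included, had Kcnk13 as the leading member in the primary library, a leak channel known to set the resting potential of microglia. Its level was 38.7 CPM [29.7 to 49.6] there beside 28.1 CPM [13.5 to 51.7] in the relapsed library. A UMI was seen in 27.7% and 27.6% of cells. Kcnk6 followed with 16.2 and 16.9 CPM, Kcnab2 with 11.2 and 14.0 CPM and Kcnj2 with 9.99 CPM in the primary. Of 5 members with enough UMIs 2 were past the fold (40.0%, all genes 18.8%; 1 lower beside 12.4% and 1 higher beside 6.34%). Kcnn4 had 22 and 0 UMIs, which is at least 1.63-fold lower in the relapsed library against a floor of 3 UMIs. Its primary UMIs were densest in cluster n15 (51 CPM), led by Gpnmb, Lgals3 and Acp5, and in n11 (36 CPM). Cluster n15 held 21 primary and 0 relapsed cells and n11 held 25 and 3, so the class differed in make-up between the libraries. Kcnj10 was 11.2 and 50.6 CPM, from 18 UMIs in each library, while Aqp4 was 2 CPM and 0 in the microglia class. After thinning, 3.08% and 3.45% of cells held a Kcnj10 UMI.

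Pericytes were few, but Kcnj8 was in all of them, 3 of 3 primary and 13 of 13 relapsed cells, at 644 CPM [294 to 1222] and 1064 CPM [888 to 1264]. Abcc9 was 602 CPM in the relapsed pericytes. Kcne4 (66.0 CPM) and Kcnmb1 (41.2 CPM), a smooth muscle partner of the large-conductance channel, followed there. Endothelial cells had Kcnj2 at 46.9 and 40.6 CPM and Kcnq1 at 31.3 and 46.4 CPM, on 4 to 8 UMIs each. Fibroblasts had Kcne4 at 153 and 32.4 CPM and Kcnk2 at 153 and 36.7 CPM, from 5 UMIs each in the primary. Over these classes together 1 of 3 members with enough UMIs was past the fold (33.3%, all genes 24.7%, with 13.2% higher and 11.5% lower), Kcnj8 with 63.0 and 171 CPM, and there the relapsed library held 13 of 16 pericytes. A glial cluster that stayed unnamed, n3, with 71 primary and 6 relapsed cells, had Kcnj8 at 50.3 CPM in the primary library, with a UMI in 14.1% of cells, and Rgs5 at 3 CPM.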

How the data were processed

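Single-cell RNA of 2 tumour libraries and bulk RNA of 6 libraries of sorted astrocytes were analysed. Single-cell values are the deposited UMI counts per gene and cell. Bulk values are the authors' read counts and FPKM per gene symbol, as deposited. Cell Ranger, STAR, Seurat and mm10 are listed in the submitters' processing notes without roles or versions. The counting tool and its strand setting: not given in the sources used here. Tissue was dissociated with papain and sorted by flow cytometry, per the labels' protocols. The column of stroma A replicate 2 carries a further number after its sample's title, and the match is assumed.

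Bulk counts were filtered with filterByExpr, scaled with TMM factors and tested with edgeR's quasi-likelihood test (edgeR 4.0.16, R 4.3.3), with p-values adjusted by Benjamini-Hochberg over all 14176 genes. Standard errors are the log2 fold change over the square root of F. The script was tested on simulated data. Alternatives were DESeq2 (1.42.0), RLE scaling, no filter and leaving libraries out.

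Cells with at least 500 genes and at most 10% mitochondrial UMIs passed. Scrublet's automatic threshold marked 0 cells, taken as failed, so the 6% with the highest scores were removed, 546 and 470. Cells of both libraries were clustered together (scanpy 1.11.5, Leiden resolution 1) without the members, and clusters were named by thresholds set after the data had been seen. Non-granule classes were named from raised markers. Clusters without enough raised markers of another cell type were called granule lineage, with no granule marker required. Those passing neither the differentiating nor the cycling rule were called precursors. Clusters g10 (602 primary and 3 relapsed cells) and g16 (145 relapsed cells) stayed unnamed because their cells had few genes, under 0.65 of the library median. Intervals are exact Poisson for UMIs and exact Clopper-Pearson for shares (scipy 1.17.1).

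Members and lists were chosen with earlier results of these data known. Named in bulk are the 12 members with the smallest p, the 10 with the highest mean FPKM and 15 glial and vascular channels. Named in cells are the 4 highest members of a class, those past the fold and the same 15 channels. Other members are named where noted by their values. Some genes that these rules pick are not reported here, nor drawn where a figure labels genes, and counts over members include them.

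FPKM values agreed only in part with counts per kilobase of GENCODE exons: 27 of 84 members lay over 1 log2 unit from the median ratio, and 7 of the top 10 were shared.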

Additional observations from a re-analysis of the deposited data

Results flagged for a closer look

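Of the members past the 2-fold difference between the relapsed and the primary library in more than 1 cell class, 7 had opposite directions in a pair of classes. With 1 library per tumour state these differences were not tested. The log2 ratio of relapsed over primary for Kcna1 was 2.23 in the granule lineage and -1.40 in oligodendrocyte precursors. For Kcnj10 it was -1.31 in oligodendrocyte precursors and 2.17 in microglia, the latter from 18 UMIs in each library. For Kcnj8 it was -4.51 in the granule lineage and 1.38 in the vascular and meningeal classes together, where the relapsed library held 13 of 16 pericytes. For Kcnk13 it was -2.99 in the granule lineage and 1.02 in oligodendrocyte precursors, with an interval from -0.14 to 2.24 for the latter. For Kcnk3 it was 3.61 in the granule lineage, from 1 and 22 UMIs, and -3.09 in oligodendrocyte precursors, from 19 and 1. For Kcnn4 it was 2.70 in the granule lineage and -3.32 in microglia, where the relapsed library had 0 UMIs and the value depends on the pseudocount. Within the granule lineage, the log2 ratio of Kcnd3 was -1.69 in cycling cells, from 26 and 6 UMIs, and 1.38 in differentiating cells, from 6 and 19.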

How the results depend on the processing

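No paired analysis was possible because the replicate numbers of the bulk libraries were given in accession order, and only the number 5 in the titles is shared by the stromata. The count of members called in the bulk test was 0 with edgeR, 8 with DESeq2, and between 0 and 16 when single libraries were left out, the highest without stroma B replicate 3. The median log2 fold change of members ran from -0.91 to -0.54 on leaving out single libraries. Of the potassium partners 0 were called with edgeR, 7 with DESeq2 and between 0 and 5 on leaving out single libraries, settings chosen after seeing the data. The median of each of the 5 channel families stayed below 0 in all 10 alternatives. DESeq2 moved the median of all genes to -0.26. Of 278 alternative values of single bulk members 250 kept their direction and side of the threshold, and 10 turned sign. Kcnj16 turned to 0.029 with no filter, 0.051 without both number-5 libraries, 0.20 without stroma A replicate 1, and 0.15 and 0.18 without stroma B replicates 1 and 2. Kcnmb4 turned to 0.32 and 0.20 without stroma A replicate 1 and stroma B replicate 1. Kcnma1 turned to 0.23 without stroma B replicate 1 and to 0.23 without both number-5 libraries, and Kcnj13 to 0.16 without stroma B replicate 3. Over single libraries left out the lowest values were -0.64 for Kcnj16, -0.46 for Kcnmb4, -0.77 for Kcnma1 and -0.87 for Kcnj13. With no doublets removed, 7 astrocyte members were past the fold, and the members' sum was 863 and 829 CPM in primary and relapsed astrocytes, 1536 CPM in primary oligodendrocyte precursors and 181 CPM in primary microglia, while the log2 ratio of Kcnj10 in astrocytes turned to 0.12. With members allowed in the clustering, 8 cycling members were past the fold. At a minimum of 50 UMIs the counts were 5 in cycling cells, 3 in differentiating cells, 4 in oligodendrocyte precursors and 0 in microglia. Fewer members qualify at this minimum. The share of all genes past the fold was not computed for any alternative setting of the single cells, so these counts have no background beside them. Leaving out the 76 barcodes kept in both libraries was chosen after seeing the data. Of 78 pairs of member and class past the fold, 78 kept their direction in every setting run and 58 stayed past it. The cause of these changes was not tested. Depth limits the small classes, where most members had under 20 UMIs.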
